A study of Homo sapiens with 2 samples.

Results

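The integrin and laminin genes code for the receptors and the ligands by which epithelial cells hold on to their basement membrane, and 35 of them, chosen by gene symbol, were looked up on arrays of Ca9-22 cells carrying an empty vector or a PTHLH vector. Probe sets paired with 1 gene symbol were found for 33 of the 35, which is 24 of 25 integrin genes and 9 of 10 laminin genes, out of 19775 genes in all. LAMA3 and ITGB6 have no intensities here, since no probe set was named for either gene alone in the annotation used. They enter only the counts of promoter motifs. Ca9-22 is an established human line of gingival squamous carcinoma, one of the head and neck cancers (HNSCC). One stably transduced culture carried the empty vector and one the PTHLH vector, blasticidin selection lasted 2 weeks in both, and total RNA of each was read on 1 Affymetrix U133 array. PTHLH is a secreted peptide that acts through a G protein-coupled receptor. PTHLH itself is not analysed here. The description field of both samples names another line and gene, and the titles and cell line labels, which name Ca9-22 and the vector, were followed.

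Each integrin is a pair of an α and a β chain. The α chain largely sets which matrix protein is bound, and the tail of the β chain ties the pair to the actin or, for ITGB4, the keratin skeleton. Each laminin is a cross-shaped trimer of an α, a β and a γ chain, laid down in the basement membrane under epithelia. Basal cells of squamous epithelium bind laminin mainly through the α6β4 pair in hemidesmosomes and the α3β1 pair in focal adhesions.

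Most integrin and laminin genes had similar intensities in both cultures. Of the 33 genes, 1 was lower by at least 1.5-fold with PTHLH, 0 were higher by as much and 32 lay within 1.5-fold. ITGA5, the α chain of the classical fibronectin receptor, was the lower one. Over all 19775 genes, 5.49% were at least 1.5-fold different, 1.97% higher and 3.52% lower, and over the genes above the median of both arrays 6.86%. The 1 of 33 is thus no more than the background. The paper's own list, also at 1.5-fold, names ITGA5, ITGA6 and ITGB6 under integrin signaling. How it chose among probe sets is not stated. Here ITGA6 was within 1.5-fold by its brightest probe set but past it by its dimmer one, and ITGB6 has no intensities. Below 1.5-fold, the log2 differences furthest from 0 among genes above the median of both arrays were those of ITGB7 (0.55), ITGB2 (0.45), ITGA6 (0.44), LAMB2 (-0.42) and LAMB1 (-0.41). The median log2 difference, PTHLH minus empty vector, was 0.00 over the 24 integrin genes and -0.17 over the 9 laminin genes, against 0.00 over all genes. With 1 array per condition no test could be run. No replicate stands behind any difference, and the SD between cultures is unknown.

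Values are intensities in arbitrary units, and a gene is given by its brightest probe set, a probe set being a group of short probes read together. Both arrays had nearly the same median intensity, 19.5 with the empty vector and 19.4 with PTHLH. Probes bind with different strength, so an intensity does not rank one gene against another, and only a gene's 2 arrays are compared. The median serves as a rough line below which a signal is close to background. The 33 genes had 91 probe sets, of which 38 lay above the median of both arrays. By the brightest probe set 26 genes were above both medians and 7 were not. From the disagreement of the 2 brightest probe sets in 5594 genes, both above the medians, a single log2 difference had an SD of 0.20. It covers the probes and not the cultures. Among the members above both medians, 6 of 26 (23.1%) lay beyond 2 of these SDs, 3 higher and 3 lower, against 16.5% of all 12982 genes above both medians. The 6 were ITGA6, ITGB2, ITGB7, ITGA5, LAMB1 and LAMB2. The line was 0.407, and LAMB1 (-0.412) and LAMB2 (-0.425) were only just past it. ITGB2 (0.448) has a dimmer second probe set, and for genes with a probe set not above both medians 2 SDs were 0.503.

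**Figure D1:**
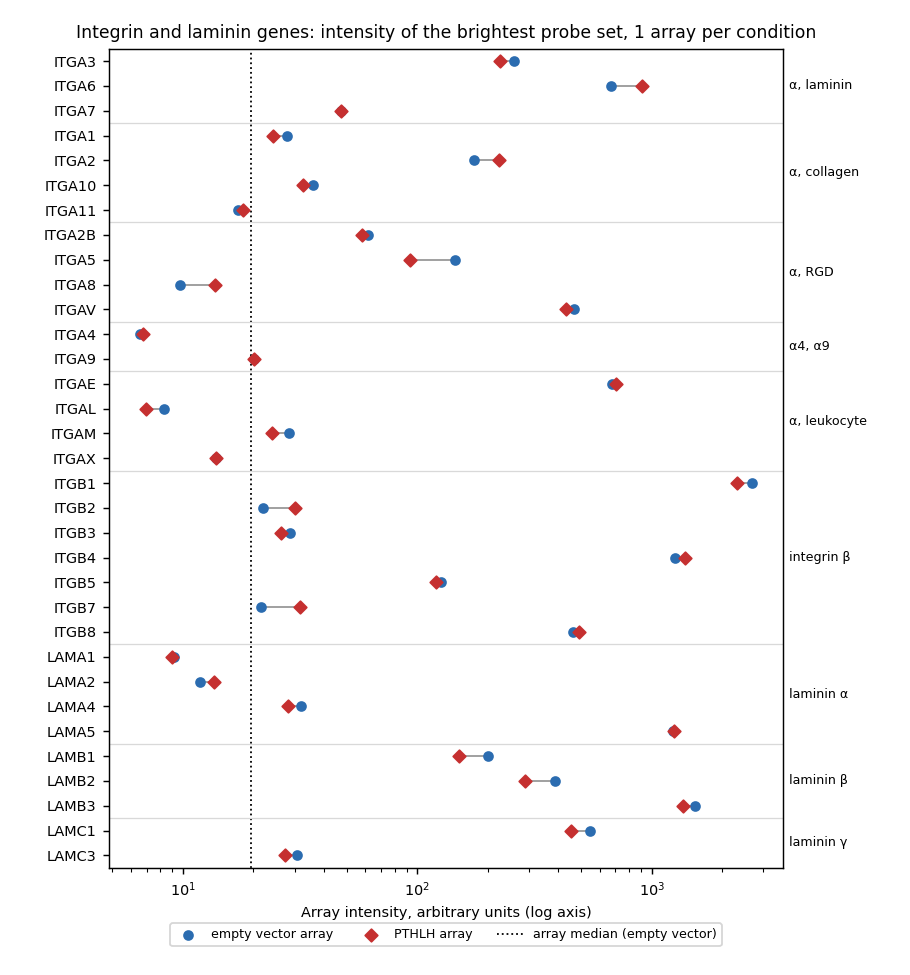
Intensity (arbitrary units, log axis) of the brightest probe set of each of the 33 integrin and laminin genes, grouped by chain as written at the right. Blue circles are the empty vector array and red diamonds the PTHLH array, with a line from one to the other, and the dotted line is the median of the empty vector array (19.5). The widest gap among genes to the right of the median is that of ITGA5, from 144 to 93.1.

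The squamous character of the cells was plain on both arrays. Of 9 measured markers of squamous epithelium all lay above both medians, with the basal keratin KRT14 at 2186 and 2223. The summed intensity of the list was 33833 with the empty vector and 37803 with PTHLH. KRT5 moved this sum most, and the other 8 markers summed to 26010 and 27574. Of the leukocyte markers 4 of 8 were above both medians, while PTPRC, the pan-leukocyte antigen gene, was below them at 7.05 and 7.84. Of the fibroblast markers 4 of 10 were above both medians, COL1A1 at 2437 and 1652 and DCN, THY1 and PDGFRB closer to the medians, while COL3A1 was below them at 5.72 and 6.32. In bulk RNA, fewer cells that express a gene and less of its RNA per cell cannot be told apart.

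The laminin-binding α chains were split. ITGA6, the α chain of the hemidesmosome, was at 673 with the empty vector and at 911 with PTHLH (log2 difference 0.44). Its second probe set went from 83.7 to 143, with 0.77, and both probe sets were above the medians. ITGA6 was thus higher on the PTHLH array by both of its probe sets, and the dimmer one was past 1.5-fold. Of 1046 genes within 0.5 log2 units of its level, 11.0% had a difference of at least the same size. ITGA3, the α chain that joins ITGB1 in focal adhesions, went from 258 to 226 (-0.19) by its only probe set, within 1 SD of the probe spread. ITGA7, the laminin receptor chain of muscle, held the same value on both arrays, 47.4. Identical values were found for 9 of the 91 member probe sets (9.89%) and for 6.16% of all probe sets.

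Among the collagen-binding α chains, ITGA2, which pairs with ITGB1 on keratinocytes, went from 174 to 224 (0.36), while the second of its probe sets went from 61.5 to 72.9, with 0.25. Both were above the medians and both were higher on the PTHLH array. The other chains of this kind are known from mesenchymal cells. ITGA1 went from 27.9 to 24.3 (-0.20) and ITGA10, a collagen receptor chain of cartilage, from 35.9 to 32.6 (-0.14). ITGA11 stayed below both medians, at 17.1 and 18.1.

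Among the α chains that bind the RGD motif of fibronectin and vitronectin, ITGA5 stood apart. It went from 144 to 93.1, a log2 difference of -0.63, which is 1.55-fold. It is measured by 1 probe set, so no second reading stands beside it. Of 2601 genes of like level, 7.0% had a difference of at least that size. The log2 differences of ITGA6 and ITGA5 lay 1.07 apart, and no share over other pairs of genes stands beside that gap. ITGAV, the vitronectin receptor chain that takes several β partners, went from 468 to 431 (-0.12). ITGA2B, the platelet fibrinogen receptor chain, went from 61.3 to 58.0 (-0.08), and its other probe sets lay between -0.34 and 0. ITGA8, known from kidney development, went from 9.73 to 13.7 (0.50), all below the medians and by a probe set whose suffix x marks cross-hybridisation. Its other 3 probe sets lay between -0.27 and 0.03, so its log2 difference has no settled sign.

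**Figure D2:**
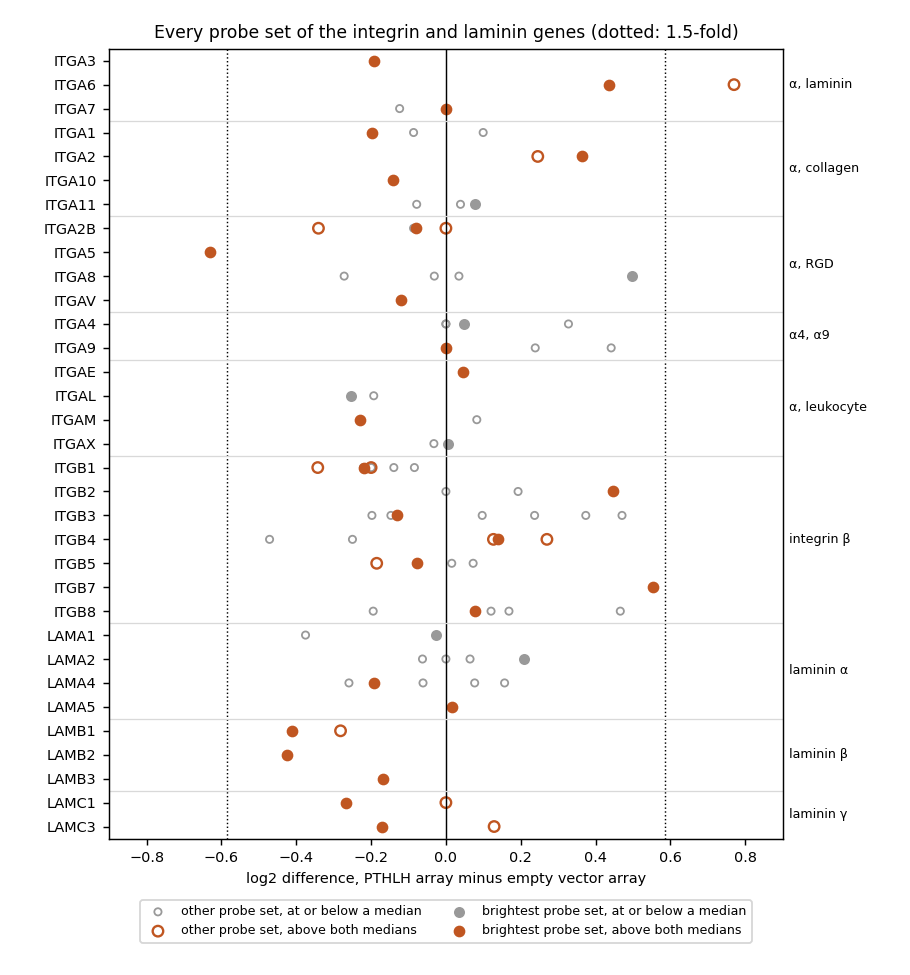
Log2 difference (PTHLH minus empty vector) of every one of the 91 probe sets of the 33 genes. Filled points are the brightest probe set of a gene and open points the others, orange where the probe set lies above the median of both arrays and grey where it does not, and dotted lines mark 1.5-fold. Only ITGA5 (-0.63) and the second probe set of ITGA6 (0.77) lie outside the dotted lines, and the grey points scatter to both sides of 0.

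The remaining α chains belong mostly to blood cells. ITGA4, which binds VCAM1 on vessels, was at 6.54 and 6.76, and ITGAL, which pairs with ITGB2 on lymphocytes, at 8.32 and 6.98, all below the medians. ITGAX, a chain of dendritic cells, was at 13.8 and 13.9, also below. ITGAM, the complement receptor chain of myeloid cells, went from 28.2 to 24.1 (-0.23), while its dimmer probe set had 0.08. ITGA9, a tenascin receptor chain, had 20.0 on both arrays. ITGAE is known as the α chain by which T cells hold E-cadherin on epithelium, and it was far above the medians here, with 680 and 702 (0.05) by its only probe set. In the leukocyte marker list the actin-bundling protein gene LCP1, at 318 and 294, and CORO1A, at 89.8 and 87.7, were above both medians. So were CD53 (31.0 and 30.2) and LAPTM5 (23.3 and 26.4), closer to the medians. CD3E (20.2 and 19.4) was above the median of the empty vector array only, and CD14 (9.81 and 11.7) and SPI1 (11.0 and 11.6) were below both. The summed intensity of this list was 510 and 489. Both cultures were of the same established carcinoma line, and whether any of these values came from leukocyte RNA was not tested.

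Of the β chains, 7 were measured and all lay within 1.5-fold. ITGB1, the common partner of the collagen, fibronectin and most laminin receptors, went from 2681 to 2304, a log2 difference of -0.22. All 7 of its probe sets were lower on the PTHLH array, between -0.34 and -0.08, of which 3 were above both medians. ITGB4, the hemidesmosome chain that joins only ITGA6, went from 1258 to 1385 (0.14). Its 3 probe sets above both medians lay between 0.13 and 0.27, and its other 2, which were dim, at -0.25 and -0.47. By their brightest probe sets ITGB4 and ITGB1 were 0.36 log2 units apart, a gap to which the SD of a single log2 difference does not apply. By these probe sets, the log2 differences of ITGB1 (-0.22) and ITGB4 (0.14) were each within 2 SDs of the probe spread (0.407).

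The β partners of ITGAV lay close to 0 by their brightest probe sets. ITGB5, part of a vitronectin receptor, went from 126 to 120.0 (-0.08), and its next probe set had -0.18. ITGB8, which with ITGAV releases TGF-beta from its latent form, went from 464 to 490 (0.08). Its other probe sets, all dim, lay between -0.19 and 0.47. ITGB3, the partner of ITGAV and ITGA2B, went from 28.7 to 26.2 (-0.13), and its other 6 probe sets spread from -0.20 to 0.47. ITGB7 and ITGB2, the β chains of leukocytes, had the largest positive log2 differences among integrin genes above both medians, but at intensities just above them. ITGB7 went from 21.5 to 31.5 (0.55) by its only probe set. ITGB2 went from 22.0 to 29.96 (0.45) by a probe set with the suffix x, and its other probe sets, not above both medians, had 0.19 and 0.

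**Figure D3:**
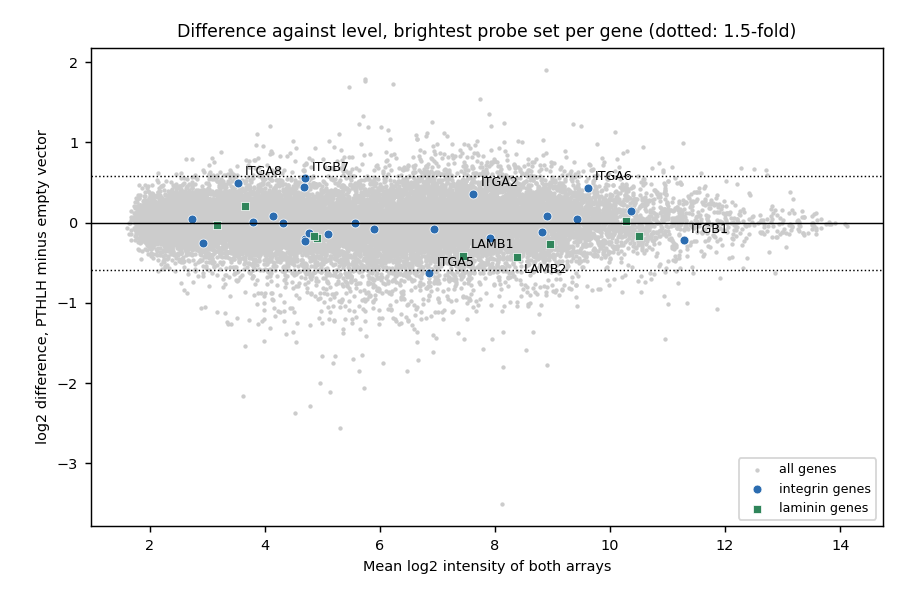
Log2 difference, PTHLH minus empty vector, against the mean log2 intensity of both arrays, for the brightest probe set of each of 19775 genes (grey), with integrin genes as blue circles and laminin genes as green squares. Dotted lines mark 1.5-fold. The members lie inside the grey band at every level, and ITGA5 (-0.63) is the only one past a dotted line.

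Among the ligands, 7 of 9 laminin genes had a log2 difference below 0, against 9292 of all 19775 genes, and none was past 1.5-fold. All 3 β chains were on this side. LAMB1, the β chain of the most widespread laminins, went from 201 to 151 (-0.41), and its second probe set from 78.9 to 64.9 (-0.28). LAMB2, the β chain of the kidney filter and the nerve-muscle contact, went from 386 to 288 (-0.42) by its only probe set. LAMB3, part of the laminin that anchors hemidesmosomes in skin and mucosa, went from 1537 to 1367 (-0.17). LAMB1 and LAMB2 were thus about 1.33 and 1.34 times as bright with the empty vector, below the 1.5-fold line. Of genes of like level, 18.1% and 15.1% had differences at least as large. In the fibroblast list COL1A1, a fibrillar collagen gene, was also lower with PTHLH, going from 2437 to 1652. It carried the sum of the list from 2576 to 1794. The other 9 markers summed to 139 and 142, and of all 10 the log2 difference was above 0 in 5 and below 0 in 5. Of these fibroblast markers 4 were above both medians and 6 were not. The latter included COL1A2 (15.8 and 18.3), COL3A1 (5.72 and 6.32), LUM (3.58 and 4.28) and PDGFRA (10.2 and 8.88). Both cultures were of the same established carcinoma line. Whether any of the laminin values came from fibroblast RNA was not tested.

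LAMC1, the γ chain that most laminins share, went from 546 to 454 (-0.27), but its second probe set, also above both medians, had the same value on both arrays. LAMC3, a rarer γ chain, went from 30.7 to 27.2 (-0.17), and its second probe set had 0.13. The α chains showed no common direction. LAMA5, the main laminin α chain of adult epithelial basement membranes, was at 1236 and 1250 (0.02). LAMA4, the α chain of vessel walls, went from 32.0 to 28.0 (-0.19) by its brightest probe set, and its dim ones lay between -0.26 and 0.16. LAMA1, an embryonic α chain, was below both medians at 9.12 and 8.96, as was LAMA2, the muscle α chain, at 11.8 and 13.6.

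For 9 members the 2 brightest probe sets were both above the medians. They had the same sign in 6, namely ITGA2, ITGA6, ITGB1, ITGB4, ITGB5 and LAMB1, and differed in the other 3, of which ITGA2B and LAMC1 had a second probe set at 0 and LAMC3 one of the opposite sign. By these 9 pairs a single log2 difference had an SD of 0.14.

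The promoters of ITGA5, ITGA6, LAMB1 and LAMB2 are shown because ITGA5 and ITGA6 differed in opposite directions and the pair of laminin β chains in one. They were chosen after their values were seen, and ITGB7 and ITGB2, which were further from 0 than ITGA6 but only just above the medians, are not shown. The windows are from RefSeq on GRCh38.p14 and run from 250 bases before to 50 after an annotated start, on the strand of the gene. Capitals mark 4 motifs on either strand, which are the AP-1 site TGANTCA, the RUNX site TGTGGT, the CRE half-site TGACG and the GC box GGGCGG. The windows lie at chr12:54419217-54419516 (ITGA5, minus strand), chr2:172427336-172427635 (ITGA6, plus strand, 1 of its 2 windows), chr7:108003112-108003411 (LAMB1, minus strand) and chr3:49133001-49133300 (LAMB2, minus strand).
ITGA5: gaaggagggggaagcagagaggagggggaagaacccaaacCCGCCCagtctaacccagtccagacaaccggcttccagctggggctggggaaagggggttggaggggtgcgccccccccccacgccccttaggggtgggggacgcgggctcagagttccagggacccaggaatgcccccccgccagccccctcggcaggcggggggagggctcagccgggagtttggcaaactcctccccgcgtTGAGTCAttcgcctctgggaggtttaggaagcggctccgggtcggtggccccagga
ITGA6: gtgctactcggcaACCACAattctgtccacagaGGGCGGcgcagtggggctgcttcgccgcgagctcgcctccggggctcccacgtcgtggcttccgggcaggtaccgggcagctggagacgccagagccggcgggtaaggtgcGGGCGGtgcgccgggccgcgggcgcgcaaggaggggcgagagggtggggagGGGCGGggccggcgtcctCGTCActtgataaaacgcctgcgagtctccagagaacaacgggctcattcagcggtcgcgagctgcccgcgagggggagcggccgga
LAMB1: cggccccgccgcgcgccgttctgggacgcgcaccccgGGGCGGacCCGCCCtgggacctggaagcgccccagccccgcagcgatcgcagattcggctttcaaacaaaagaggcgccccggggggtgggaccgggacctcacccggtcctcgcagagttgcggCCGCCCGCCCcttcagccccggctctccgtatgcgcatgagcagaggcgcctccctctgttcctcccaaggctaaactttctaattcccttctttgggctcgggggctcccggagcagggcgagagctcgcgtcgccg
LAMB2: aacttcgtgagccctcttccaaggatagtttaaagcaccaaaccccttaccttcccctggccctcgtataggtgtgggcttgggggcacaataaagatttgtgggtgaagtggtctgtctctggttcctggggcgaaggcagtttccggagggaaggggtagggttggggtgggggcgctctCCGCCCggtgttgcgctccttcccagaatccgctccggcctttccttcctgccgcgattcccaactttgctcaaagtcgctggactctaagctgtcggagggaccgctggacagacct

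ITGA5 held an AP-1 match from base -6 to base 1 counted from the start, with no base 0, and a GC box. ITGA6 held a RUNX match on the opposite strand, a CRE half-site and 3 GC boxes in the window shown. LAMB1 held 4 GC boxes, a pair of which overlap, and LAMB2 held 1. AP-1 letters were found in 7.71% of all 35116 windows, RUNX letters in 13.1%, the CRE half-site in 24.6% and the GC box in 45.0%. The full CRE, TGACGTCA, was in 1.85% of windows and in 0 of the 32 windows of the 25 members that had one. AP-1 letters were found in 3 of these 25 members, ITGA5, LAMA3 and LAMB3, and RUNX letters in 2, ITGA6 and ITGAM. The CRE half-site was found in 6 members and the GC box in 14. These counts are by gene, and some genes have several windows, so they cannot be set directly against the shares of windows. The matches describe letters in a short window and were not tested for binding.

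The proteins that work with integrins and laminins were likewise mostly within 1.5-fold. Of 97 measured genes in 7 partner lists, 2 were at least 1.5-fold higher and 1 was lower on the PTHLH array, against 1.97% and 3.52% of all genes, and their median log2 difference was -0.02. In hemidesmosomes, 0 of 5 partners were past 1.5-fold and the median was 0.07. DST, which codes for a plakin that links ITGB4 to keratin, went from 187 to 276 (0.56), though its 4 other probe sets above both medians lay between -0.03 and 0.21. KRT5, the keratin anchored there, went from 7823 to 10228 (0.39), and the tetraspanin CD151, which holds ITGA3 and ITGA6, from 400.2 to 349 (-0.20).

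Of 13 basement membrane partners, 1 was lower past 1.5-fold and 0 were higher, with a median of -0.08. HSPG2, the proteoglycan perlecan, which binds laminin, went from 574 to 377 (-0.61), and its second probe set had -0.69. COL7A1, the anchoring fibril collagen beneath hemidesmosomes, went from 921 to 661 (-0.48), with -0.58 by its second probe set. Both were lower by each of their probe sets. COL4A6, a network collagen of basement membranes, went the other way, from 417 to 619 (0.57), and its other probe sets had 0.23 and 0.46.

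Of 6 other laminin receptors 0 were past 1.5-fold, and the median was -0.01. The syndecan SDC1 went from 1554 to 2033 (0.39) and SDC4 from 3789 to 3078 (-0.30), while SV2A, at 19.5 and 25.7, was close to the medians. Of 22 other integrin ligands 1 was higher and 0 lower, with a median of 0.01. TNC, the matrix protein tenascin-C, went from 53.7 to 82.4 (0.62), but its other 2 probe sets, not above both medians, had 0.36 and 0. ICAM3, a ligand of the ITGAL pair, went from 140.2 to 199 (0.51) and the RGD protein gene MFGE8 from 77.1 to 58.9 (-0.39), with 0.20 by a dim probe set.

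Inside the cell, 1 of 33 activators and focal adhesion adaptors was higher and 0 were lower, with a median of 0.00. PARVA, the adaptor α-parvin, went from 67.4 to 102 (0.59), and its 6 other probe sets, all above both medians, spread from -0.07 to 0.44. FERMT1, the kindlin of epithelia that switches β chains on, went from 425 to 603 (0.51), and 2 more probe sets above both medians had 0.44 and 0.55. The kinase gene FYN went from 576 to 398 (-0.53), with its other 4 probe sets between -0.52 and -0.26. Of 10 inhibitors and trafficking genes and 8 tetraspanins none was past 1.5-fold, with medians of -0.14 and -0.13. Over the 8 and 6 of them above both array medians, the median log2 differences were -0.04 and -0.10. Of those 8 inhibitors and trafficking genes, 4 were higher and 4 lower. CIB1, which binds the tail of ITGA2B, went from 2064 to 1547 (-0.42), RAB25, which carries integrins back to the surface, from 816 to 677 (-0.27), and RAB21, another carrier, from 128 to 154 (0.26), with its other probe sets between -0.29 and 0.18. Of the tetraspanins, CD81 had a log2 difference of -0.23, CD9 of -0.19 and TSPAN4 of -0.17. The 2 other probe sets of CD9, also above both medians, had -0.15 and 0.07, and the second of TSPAN4 had -0.06.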

How the data were processed

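Total RNA (6 ug) of 1 empty vector and 1 PTHLH culture of Ca9-22 cells was converted to biotinylated cRNA and read on 1 Affymetrix U133 array per culture. The authors deposited linear intensities for 54675 probe sets. The sources used here do not give the software, background correction, normalization or probe summary behind them, which could shift dim values most. Samples were grouped by their labels.

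Intensities were turned to log2 values without further normalization, and differences are PTHLH minus empty vector. Naming was through the platform annotation, with symbols updated through RefSeq gene identifiers, which gave 41097 probe sets with 1 symbol, 1801 with several and 11777 unnamed here. Only the first were used. The 5 probe sets that pair a member with a further gene were left out. A gene was given by the probe set of highest mean log2 value and counted as different at 1.5-fold, the study's threshold. The comparison with 2 SDs of the probe spread was added after values had been seen. No test was run. Precision is limited by having 1 array per condition.

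The members and all gene lists were chosen with earlier results of these data known. Every measured member was named, and of each partner list the 3 genes with the largest absolute difference above the median of at least 1 array. The marker lists for endothelium and the platelet lineage had 3 of 8 and 4 of 6 measured genes above both medians, those for squamous epithelium, leukocytes and fibroblasts 9 of 9, 4 of 8 and 4 of 10. Every measured leukocyte marker was named. Genes of the other marker lists that are named in the text were picked after values had been seen. The alternatives were quantile normalization, centring on bright probe sets, taking a gene's median or largest change, dropping dim probe sets, a floor set per array at percentile 40, dropping the suffix x, or x and s, and a 2-fold threshold. The counting was tested on simulated data with planted changes well past 1.5-fold and noise below the probe spread found here. That check does not bear on genes near the 1.5-fold line, such as ITGA5. Calculations ran in Python 3.11.15 with pandas 2.3.3 and numpy 2.4.6, and plots in matplotlib 3.10.9.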

Additional observations from a re-analysis of the deposited data

How the results depend on the processing

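No paired analysis was possible because each condition has 1 array. With each gene given by its median or by its largest change, 1 of 24 integrin genes in place of 0 was at least 1.5-fold higher, which was ITGA6 (0.60 and 0.77), against 1.25% and 3.48% of all genes. At a 2-fold threshold 0 in place of 1 integrin genes were lower. The counts of laminin genes stayed at 0 in both directions under the alternatives run. Of the partners, 2 were higher and 1 lower. At 2-fold these became 0 and 0 (all genes 0.18% and 0.73%), by the median 0 were higher (1.25%), without the suffixes x and s 1 was higher and 0 lower (1.88% and 3.41%), and by the largest change 5 of 97 were lower (4.98%), near the share of all genes. The median of the integrin genes lay between -0.08 and 0.00 and that of the laminin genes between -0.26 and -0.03, the latter over 7 genes without the suffixes x and s. Members moved by more than the probe set SD of 0.20 under the largest change (8 of 33), without the suffixes x and s (7 of 30), by the median (3 of 33), with the floor (2 of 33) and without the suffix x (2 of 33). Without the suffixes x and s the log2 difference of ITGB4 became -0.47 and that of LAMC3 0.13, each from a dim or dimmer probe set. The floor took ITGA8 to 0.07. Arrays without replicates limit the rest, and dim signals near the medians carry the least information.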
